A study of Mus musculus with 240 samples.

Results

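The MYC family and its dimerisation partners were followed in oligodendrocyte precursor cells (OPCs) of a mouse glioma model, before and after tumours had formed. Rows were taken from the gene count table by symbol and gave 9 genes of 34623, a list drawn up with earlier results of these data known: Myc, Mycn, Mycl, Max, Mxi1, Mxd1, Mxd3, Mxd4 and Mnt. MYC proteins (c-MYC, N-MYC and L-MYC, made by Myc, Mycn and Mycl) are transcription factors that bind DNA only when paired with MAX, at sites called E-boxes, and drive genes of ribosome production, metabolism and cell division. The MXD proteins (Mxd1, Mxi1, Mxd3 and Mxd4) and MNT compete for MAX and recruit SIN3 corepressors to the same sites. In brain, N-MYC is best known for driving the division of neural progenitors, and MYC and MYCN are amplified in a share of high-grade gliomas.

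The cells were cut from brain sections with a laser; the bulk libraries are labelled tdT-positive, for the red fluorescent reporter tdTomato. CKO animals carry the genotype Trp53-/- Nf1-/-, 2 tumour suppressor genes, and WT animals are wild-type. Times are days after the start of tamoxifen (dpi). Bulk libraries, amplified linearly with T7 polymerase from total RNA, came from 5 WT and 7 CKO animals at 12 dpi, 5 WT and 7 CKO animals at 90 dpi, and, at 150 dpi, 6 WT animals and 7 animals whose Trp53-/- Nf1-/- brain tumour cells were collected. The tumour group therefore has no tumour-free CKO animals of its own time, so that tumour and time cannot be told apart against CKO cells at 90 dpi. Small libraries came from CKO animals only: 112 libraries of 10 cells and 80 pool-and-split libraries (aliquots of a larger pool, which show the technical spread), split equally between 12 and 90 dpi and amplified by PCR from polyA RNA. The Cre driver, strain and age of the animals are not given in the sources used here.

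Bulk libraries held 0.0937 to 23.2 M counts (median 10), 10-cell libraries 1.64 to 6.49 M (median 4.24) and pool-and-split libraries 1.91 to 5.16 M (median 3.804). The WT animal WT_21167 at 90 dpi, with 0.0937 M counts, stood apart in depth, and its values rest on few counts. Per animal the median was 24.01 M in the 7 tumours, 19.14 M in CKO animals at 90 dpi and 4.188 M in WT animals at 150 dpi. Every tumour had 2 libraries and no WT animal did, so depth and library number went with group against WT cells. Nf1, deleted in CKO animals, had 191 ± 16.1 CPM (SD, n = 7; CPM are counts scaled to a common library total) in CKO against 312 ± 41.2 CPM (SD, n = 5) in WT cells at 12 dpi, and the edgeR difference had an adjusted p of 0.0918. Trp53 had 31.4 ± 3.7 against 32.3 ± 8.78 CPM there; a count over the whole gene includes reads outside a deleted part, so it does not check the label. In tumours Trp53 was higher than in WT cells (log2 difference 0.74, SE 0.237, adjusted p = 0.00971, edgeR), and Nf1 lower (−0.47, SE 0.133, adjusted p = 0.00354). At 90 dpi Nf1 ran from 150 to 302 CPM in CKO and from 274 to 343 CPM in WT animals; the 302 CPM belong to the animal labelled CKO_20647, whose 2 libraries had 180 and 337 CPM of Nf1 before scaling. Without it the same number of members, 6, was called in tumours against CKO cells, with Myc at 4.64, Mycl at 1.28, Mxd3 at 2.73, Mxi1 at −0.76, Mxd1 at −1.03 and Mxd4 at 0.47, and 0 in CKO against WT cells at 90 dpi. Defining markers of OPCs were read in every group, at a summed 1159 to 2305 CPM over 8 markers in the animals without tumour and 2357 to 8913 CPM in tumours. Neuron markers were far from absent in the captured cells, at a summed 5576 to 12830 CPM over 6 markers in the animals without tumour, against 204.6 to 1423 CPM in tumours.

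CACGTG, the E-box core that MYC-MAX and MXD-MAX pairs share, was looked up in the promoters of the family itself (RefSeq, GRCm38.p6, from 250 bases before to 50 after each start). The core reads the same on both strands. It was in the promoter of 3 of the 8 members that have an entry in the table, Max, Mnt and Mxd4, and not in those letters in the windows of Mxd1, Mxd3, Mxi1, Mycl and Mycn; 7.15% of 32851 promoters held it. The 30 bases around each match are shown because they are the places where the family's own recognition sequence lies near the start of a family gene, with the core in capitals. They lie at chr12:76962234-76962263 on the minus strand, chr11:74830789-74830818 on the plus strand and chr5:34187912-34187941 on the minus strand.
Max: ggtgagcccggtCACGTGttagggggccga
Mnt: ccccacccaagcCACGTGtgcgcgcgcggt
Mxd4: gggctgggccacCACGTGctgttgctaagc
The first base of the core was 3 bases before the start of Max, 123 before that of Mnt and 219 before that of Mxd4. A match of letters is a description and no evidence of binding.

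In the count table's GRCm38 coordinates, Myc (ENSMUSG00000022346) lies on chromosome 15 from 61985391 to 61990374, Mycn (ENSMUSG00000037169) on chromosome 12 from 12936093 to 12941914 and Mycl (ENSMUSG00000028654) on chromosome 4 from 122995652 to 123002485. Max (ENSMUSG00000059436) lies on chromosome 12 from 76937269 to 76962201. Of the antagonists, Mxi1 (ENSMUSG00000025025) lies on chromosome 19 from 53310506 to 53375810, Mxd1 (ENSMUSG00000001156) on chromosome 6 from 86647042 to 86669161 and Mxd3 (ENSMUSG00000021485) on chromosome 13 from 55325168 to 55329823. Mxd4 (ENSMUSG00000037235) lies on chromosome 5 from 34173883 to 34187720 and Mnt (ENSMUSG00000000282) on chromosome 11 from 74830920 to 74845725. Whether counting used strand is not given in the sources used here, and 2 members overlap a counted gene on the opposite strand: Mxd3 overlaps Prelid1 and Mxi1 overlaps Gm10197.

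Before tumours, Mycn was the most abundant MYC paralogue for its length and Myc the least. Levels are set between genes only as CPM per kilobase of exon. In CKO cells at 90 dpi Max stood highest at 33.9 ± 6.20 CPM per kilobase (SD, n = 7), followed by Mycn at 18.1 ± 6.60 and Mxi1 at 15.2 ± 1.06. Then came Mxd1 at 9.19 ± 2.73, Mxd4 at 8.28 ± 1.11, Mnt at 7.18 ± 1.31, Mycl at 4.67 ± 1.43, Myc at 2.07 ± 0.696 and Mxd3 at 0.311 ± 0.193 CPM per kilobase. In that order, Mycn and Mxi1, then Mxd1, Mxd4 and Mnt, and then Mnt and Mycl lay within their SDs of each other. In tumours the order by median was Myc at 47.3, Max at 30.6, Mycl at 10.6, Mycn at 9.75, Mxi1 at 9.30, Mxd4 at 9.23, Mnt at 5.66, Mxd1 at 4.14 and Mxd3 at 2.17 CPM per kilobase. By mean, as used for CKO cells, Mycn came first in tumours at 60.4 ± 126.5 (SD, n = 7), with Myc at 47.6 ± 17.6. Mycn ran from 1.797 to 346.2 over the tumours. The ranges of Mycl, Mycn, Mxi1 and Mxd4 overlapped there, so no order among these genes is read. With the length of the longest transcript in place of all exons, Max came first in tumours at 56.7, Myc next at 55.0 and then Mxd4 at 16.9 CPM per kilobase, ahead of Mxi1 at 12.6, Mycl at 12.2 and Mycn at 12.0.

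**Figure D1:**
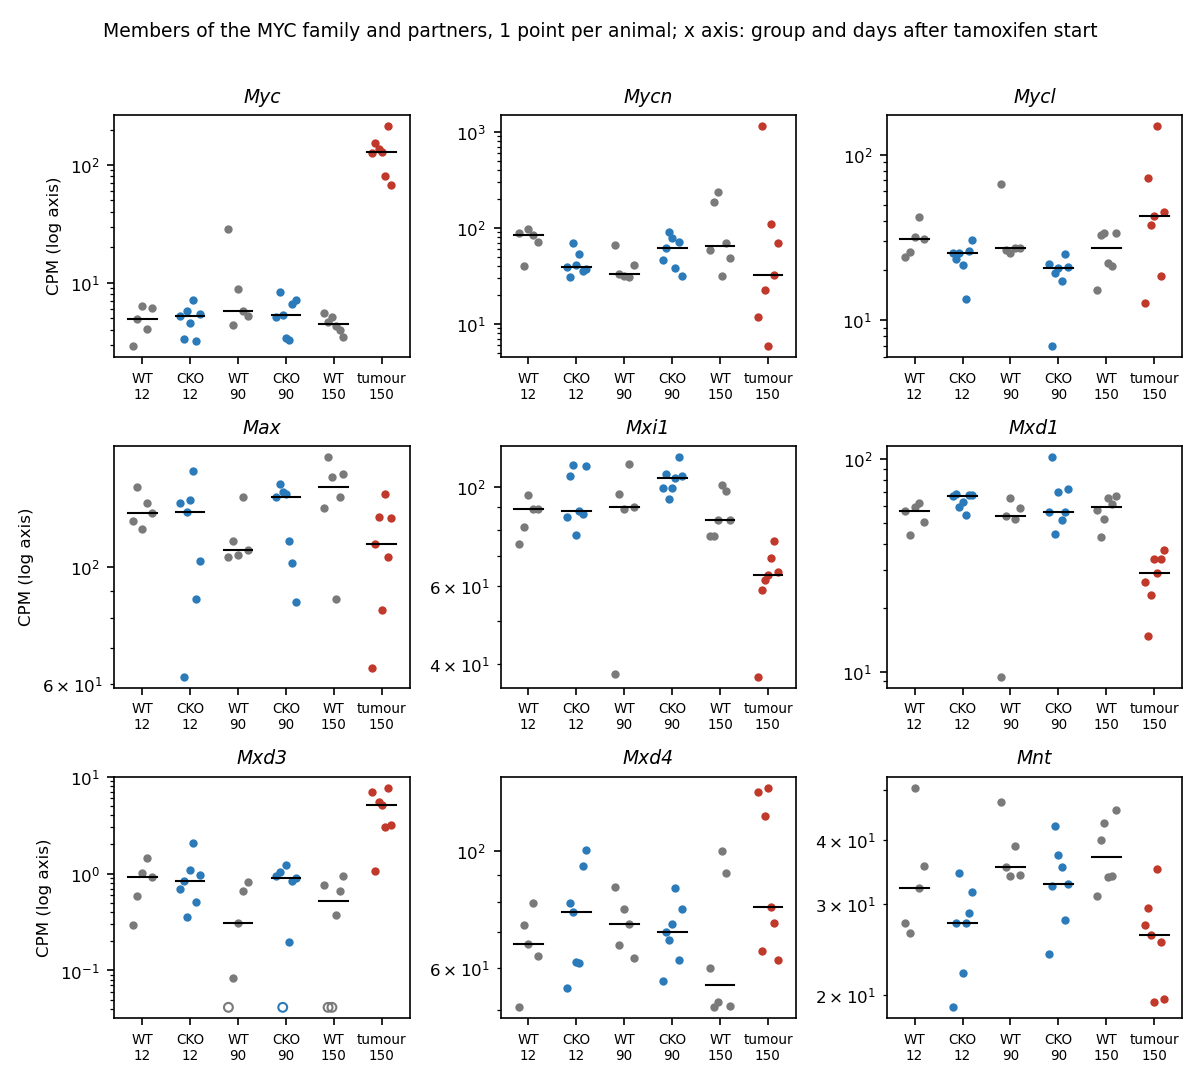
Level of each of the 9 genes in every bulk animal, in CPM on a log axis, by genotype and time; a point is 1 animal, a black line is the group's median, and an open circle at the bottom is an animal with 0 counts. The 7 tumours sit between 68.1 and 213 CPM for Myc, above every animal without tumour, while for Mycn they spread from 5.92 to 1141 CPM.

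Myc rose in all 7 tumours. At 12 dpi the 5 WT animals had 2.92, 4.91, 6.36, 4.06 and 6.08 CPM, and the 7 CKO animals 3.23 to 7.17 CPM with a median of 5.22. At 90 dpi the WT animals had 28.4, 4.41, 8.85, 5.81 and 5.23 CPM, the first being the shallow WT_21167 with 3 counts, and CKO animals 3.29 to 8.38 CPM with a median of 5.38. At 150 dpi WT animals had 3.47 to 5.61 CPM, and the tumours 126, 152, 138, 129, 80.2, 213 and 68.1 CPM. All animals without tumour other than WT_21167 thus lay under 9 CPM, and no tumour lay within their range. Against WT cells at 150 dpi the means were 129 ± 47.8 (SD, n = 7) and 4.53 ± 0.764 CPM (SD, n = 6), a log2 difference of 4.85 (SE 0.312, adjusted p = 2.3e-15, edgeR quasi-likelihood F test), or 28.9-fold. Against CKO cells at 90 dpi, at 5.62 ± 1.89 CPM (SD, n = 7), the log2 difference was 4.50 (SE 0.276, adjusted p = 5.74e-16, edgeR), or 22.6-fold. Of 16349 genes tested, 1.37% rose at least as much as Myc against WT cells and 1.00% against CKO cells. In bulk samples a higher level per cell and more cells of a type cannot be told apart.

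Mycn was spread widely over the tumours and was not called in the fit of all animals. WT animals at 12 dpi had 88.0, 40.1, 98.1, 84.4 and 72.1 CPM, and CKO animals 30.9 to 69.1 CPM with a median of 39.6. WT animals at 90 dpi had 66.4, 33.4, 31.9, 31.2 and 40.8 CPM, and CKO animals 31.5 to 90.1 CPM with a median of 61.8. WT animals at 150 dpi ranged from 32.0 to 239 CPM, 2 of the 6 being above 100. In the tumours Mycn stood at 12.0, 1141, 22.5, 5.92, 111, 32.1 and 69.1 CPM, so 3 tumours lay below every animal without tumour, 1 lay above every one and 3 lay within their range. The edgeR log2 difference was 0.80 against WT cells (SE 0.679, adjusted p = 0.354, interval of the fold 0.692 to 4.38) and 1.34 against CKO cells (SE 0.703, adjusted p = 0.114, interval 0.974 to 6.57). Both directions rest on Tumor_16839: without it the log2 differences were −1.27 (adjusted p = 0.0212) and −0.64 (adjusted p = 0.241), with leave-one-out ranges of adjusted p of 0.0212 to 0.501 and 0.0441 to 0.241. Against CKO cells Mycn passed with DESeq2 (1.51, adjusted p = 0.0388), without the sex term (1.74, adjusted p = 0.0292), and in edgeR without Tumor_16713 (1.65, adjusted p = 0.0454) or Tumor_16844 (1.54, adjusted p = 0.0441), with 0.0292 to 0.741 over all settings tried.

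Mycl was higher in tumours on average, and again unequally so. WT animals at 12 dpi had 24.0, 25.8, 31.8, 42.1 and 31.0 CPM, and CKO animals 13.4 to 30.5 CPM with a median of 25.4. WT animals at 90 dpi had 66.4, 26.4, 25.4, 27.2 and 27.4 CPM, the first again being WT_21167, with 7 counts, and CKO animals 6.97 to 25.3 CPM with a median of 20.6. WT animals at 150 dpi had 15.3 to 33.4 CPM and the tumours 12.7, 72.0, 37.4, 42.7, 149, 18.4 and 44.8 CPM, so that 5 tumours lay above the WT range, 1 within it and 1 below it. The log2 difference was 1.01 against WT (SE 0.356, adjusted p = 0.0195, edgeR) and 1.47 against CKO cells (SE 0.349, adjusted p = 6.32e-04, edgeR). Against WT the call was lost without Tumor_21256 (0.54, adjusted p = 0.137) and without WT_21590 (0.88, adjusted p = 0.0548). With only the compared groups in the fit it was lost against WT (adjusted p = 0.112, from 0.0024 to 0.112 over all settings tried) and against CKO cells (adjusted p = 0.0501, from 3.99e-06 to 0.0501).

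**Figure D2:**
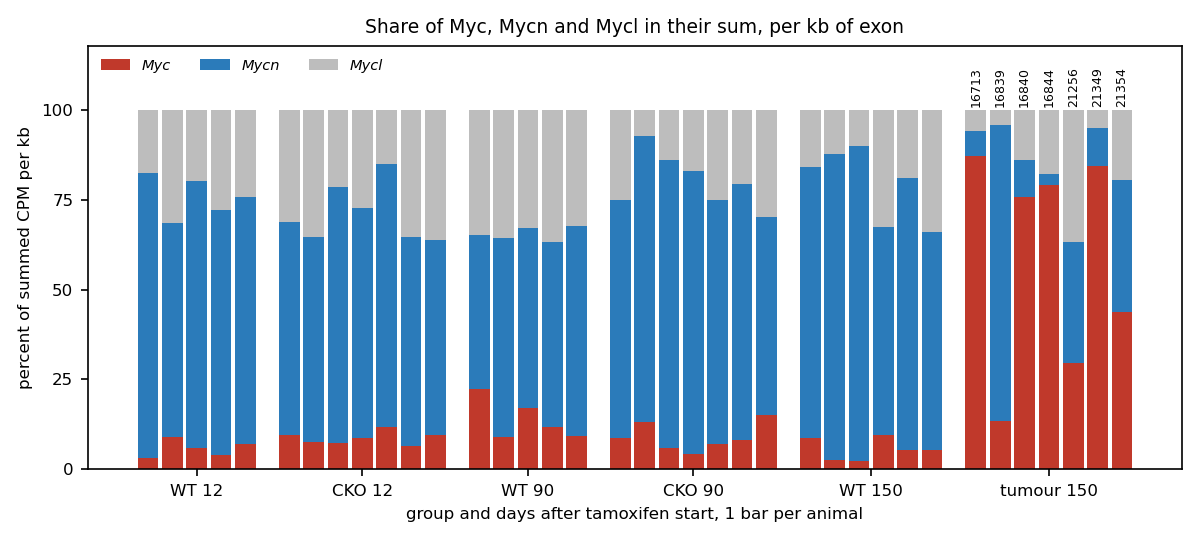
Share of Myc, Mycn and Mycl in their summed CPM per kilobase, in percent, for every bulk animal by group, with tumours numbered. Mycn holds the largest share in every animal without tumour, Myc in 5 of the 7 tumours, Mycn in Tumor_16839 at 82.4% and Mycl in Tumor_21256 at 36.8%.

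Within the summed length-scaled level of the 3 paralogues, the median share of Myc was 5.27% to 11.7% over the groups without tumour and 75.9% in tumours. The median share of Mycn was 51.6% to 75.6% in the groups without tumour and 10.5% in tumours, and that of Mycl 17.4% to 34.9% and 13.9%. The tumours Tumor_16713, Tumor_21349, Tumor_16844 and Tumor_16840 were led by Myc, at 87.2%, 84.5%, 79.3% and 75.9%. Tumor_21354 was mixed, with 43.9% Myc, 36.7% Mycn and 19.4% Mycl. Tumor_21256 was close to even, with 29.5%, 33.7% and 36.8%. Tumor_16839 had 13.3% Myc, 82.4% Mycn and 4.25% Mycl, although its 152 CPM of Myc was the second highest of the 7. The sum of the 3 had a median of 66.7 CPM per kilobase in tumours (53.2 to 420) and of 19.2 to 33.7 in the other groups; WT animals at 150 dpi reached from 16.8 to 82.7, so the groups overlapped.

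For Mycn, Mycl and Myc the range over the 7 tumours was 7.57, 3.53 and 1.64 on the log2 scale. Each was larger than the difference between the 2 libraries of any tumour. A range over 7 tumours tends to be wider than a difference of 2 libraries by its make-up. The 2 were closer for Mxd3 (2.73 beside at most 1.89) and Mnt (0.852 beside at most 0.716). For Mycn the libraries of a tumour differed by a median of 0.138 on the log2 scale and at most 0.327, while the 7 tumours spanned 189-fold. In Tumor_16839 both libraries were high in Mycn, at 934 and 988 CPM before scaling. For Mycl the library difference had a median of 0.128 (highest 1.09) against an 11.6-fold span, and both libraries of Tumor_21256 were high, at 138 and 143 CPM. For Myc it was 0.195 (highest 0.622) against a 3.12-fold span. Among CKO animals at 90 dpi, the animal labelled CKO_20647 had libraries that did not match: 892 and 119 counts of Mycn, 114 and 23 of Myc, and 114 and 0 of Mycl, at 9.47 to 9.67 M counts each. Its summed value is the lowest Mycl of its group.

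Max, which makes the partner that MYC proteins need and that MXD proteins and MNT also bind, was high in all groups and was not called in either tumour comparison. Group means ran from 113 ± 13.0 CPM (SD, n = 5) in WT cells at 90 dpi to 135 ± 26.2 CPM (SD, n = 6) in WT cells at 150 dpi, and tumours had 107 ± 25.7 CPM (SD, n = 7). WT animals at 150 dpi ranged from 86.7 to 161 CPM and tumours from 64.1 to 137 CPM, so the groups overlapped. The log2 difference was −0.34 against WT (SE 0.176, adjusted p = 0.118, fold interval 0.624 to 1.01, edgeR) and −0.20 against CKO cells (SE 0.169, adjusted p = 0.331, interval 0.690 to 1.09). With the deepest library of each animal alone the first passed (−0.43, adjusted p = 0.0485, 0.0485 to 0.411 over all settings tried). The length-scaled level of Myc per Max was 0.0425 to 0.0643 by group median without tumour and 1.83 in tumours (0.729 to 2.70). With the length of the longest transcript it was 0.02663 to 0.04035 and 1.147 (0.4573 to 1.693). Whether Myc exceeds Max in a tumour thus depends on the length used. Max shares 84.3% to 87.6% of about 450 bases with 7 counted pseudogenes, and Mxi1 90.6% of 679 bases with the counted Gm13735. No member had a counted near-copy of 95% identity or more.

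Of the antagonists, Mxd1 fell in every tumour. Mxd1 (MAD1) is the member classically linked to cells leaving the cycle to differentiate. The WT animals had 43.2 to 67.5 CPM at 150 dpi with a median of 59.5, and CKO animals at 90 dpi 44.6 to 103 CPM with a median of 56.5. The tumours had 26.6, 14.7, 22.9, 34.0, 29.3, 34.0 and 37.4 CPM, all below both groups. The log2 difference was −1.03 against WT (SE 0.195, adjusted p = 4.16e-05, edgeR) and −1.19 against CKO cells (SE 0.189, adjusted p = 2.15e-06, edgeR). Tumor_16839, the highest in Mycn, was the lowest in Mxd1.

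Mxi1, a MXD member first described as a MAX interactor, fell by less. In WT animals at 150 dpi it had 77.5 to 100.9 CPM with a median of 84.4, and CKO animals at 90 dpi 94.0 to 117 CPM with a median of 104.6. The tumours had 37.5, 58.6, 61.7, 63.5, 69.3, 75.6 and 64.3 CPM, again all below both groups. In edgeR the log2 difference was −0.50 against WT (SE 0.142, adjusted p = 0.00394, edgeR) and −0.76 against CKO cells (SE 0.137, adjusted p = 1.86e-05, edgeR). With only the compared groups in the fit the first was not called (−0.46, adjusted p = 0.0628, 0.00297 to 0.0628 over all settings tried). The overlapping Gm10197 averaged 1.03 CPM in tumours and 0.844 CPM in WT cells.

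Mnt, the broadly expressed antagonist that does not belong to the MXD group, passed the test against WT cells and not against CKO cells. Levels were 31.1 to 45.8 CPM with a median of 37.1 in WT animals at 150 dpi, 24.0 to 42.5 CPM with a median of 32.8 in CKO animals at 90 dpi, and 19.4 to 35.1 CPM with a median of 26.2 in tumours. These ranges overlapped. The log2 difference was −0.56 against WT (SE 0.165, adjusted p = 0.0054, edgeR; −0.50 and 0.0621 with only these groups in the fit, and 0.00536 to 0.0621 over all settings tried). Against CKO cells it was −0.33 (SE 0.158, adjusted p = 0.0843, edgeR), and it passed there without Tumor_21256 (−0.43, adjusted p = 0.0213) or without CKO_20642 (−0.39, adjusted p = 0.0477).

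Mxd3 moved the other way from Mxd1, Mxi1 and Mnt. Mxd3 is the MXD member known to be made in cells that are in the S phase of the cycle. It was near the limit of the counts outside tumours: WT animals at 150 dpi had 3, 0, 0, 4, 2 and 14 counts, or 0 to 0.953 CPM, and CKO animals at 90 dpi had 0 to 1.23 CPM. The tumours had 6.92, 1.08, 5.44, 5.13, 3.01, 7.70 and 3.16 CPM, from 63, 8, 186, 143, 14, 218 and 112 counts. All tumours lay above the WT animals, and Tumor_16839, at 1.08 CPM, lay within the range of the CKO animals. Mxd3 rose by a log2 difference of 3.14 against WT (SE 0.638, adjusted p = 1.09e-04, edgeR), or 8.79-fold, and 2.63 against CKO cells (SE 0.555, adjusted p = 1.61e-04, edgeR), or 6.18-fold. Prelid1, which overlaps it on the opposite strand, averaged 40.7 CPM in tumours, 28.5 CPM in WT cells at 150 dpi and 29.9 CPM in CKO cells at 90 dpi, with log2 differences of 0.49 (adjusted p = 0.0668) and 0.44 (adjusted p = 0.0721); its part in the counts of Mxd3 was not tested.

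Mxd4, the MXD member linked to differentiated tissue, was slightly higher in tumours. WT animals at 150 dpi had 50.5 to 99.99 CPM with a median of 55.7, and tumours had 129, 64.5, 116, 132, 78.3, 72.8 and 61.9 CPM; 3 tumours, Tumor_16713, Tumor_16840 and Tumor_16844, lay above all WT animals. Its log2 difference was 0.44 against WT (SE 0.184, adjusted p = 0.0471, edgeR) and 0.44 against CKO cells (SE 0.175, adjusted p = 0.0348, edgeR). Each call was lost in 3 of the 7 alternative settings, with adjusted p from 0.00595 to 0.168 and from 0.00247 to 0.0828 over them. Each was also lost when 1 of 7 animals was left out, among them the tumours Tumor_16713, Tumor_16840 and Tumor_16844 in both comparisons, the WT animals WT_21590, WT_21591, WT_21592 and WT_22064, and the CKO animals CKO_20642, CKO_22146, CKO_22149 and CKO_22154, at adjusted p of up to 0.143 and 0.120.

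**Figure D3:**
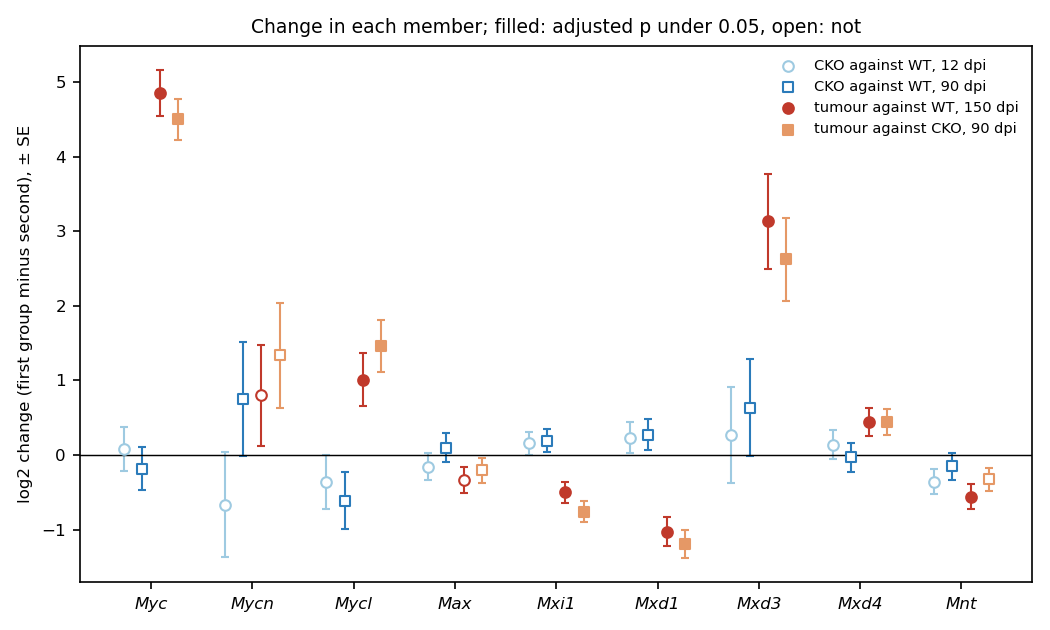
Difference of each gene in the tumour comparisons and the comparisons before tumours, from the edgeR fit; bars are 1 SE and a filled point has an adjusted p under 0.05. The vertical axis is the log2 difference, first group minus second: Myc and Mxd3 lie highest and Mxd1 lowest in the tumour comparisons, and no point is filled in the comparisons before tumours.

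In all, 7 of the 9 members were called against WT cells at 150 dpi, 4 higher and 3 lower, where 46.2% of the 16349 genes tested were called at an adjusted p under 0.05. Against CKO cells at 90 dpi it was 6, 4 higher and 2 lower, where 49.1% were called. The groups did not overlap for 4 members against WT (Myc, Mxd3, Mxd1 and Mxi1), beside 15.7% of all genes, and for 3 against CKO cells (Myc, Mxd1 and Mxi1), beside 17.2%. The members' median log2 difference was 0.44 in both, with 0.06 and 0.12 over all genes. With only the compared groups in the fit, 3 members remained called against WT: Myc, Mxd1 and Mxd3. Both comparisons share the tumours, so their values stand side by side and are not independent.

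Summed over the 5 antagonists, the length-scaled level had a median of 33.2 CPM per kilobase in tumours (25.1 to 36.0) and of 35.8 to 40.4 in the other groups, whose ranges overlapped with it. Per unit of the summed MYC paralogues this was 0.483 in tumours (0.0597 to 0.626) and 1.04 to 2.03 by group median elsewhere. The lowest values of WT cells, 0.425 at 150 dpi and 0.578 at 90 dpi, lay within the range of the tumours. The value of 0.578 is that of the shallow WT_21167, with 1 count of Mxd1 and 4 of Mxi1. With the length of the longest transcript, the antagonist sum had a median of 47.97 in tumours and 50.53 to 58.55 elsewhere. Per unit of the MYC paralogues it was then 0.594 in tumours and 1.239 to 2.412 elsewhere.

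The genes that MYC is known to drive were mostly higher in tumours. Of 27 target genes, 21 rose and none fell against WT cells, with a median log2 difference of 0.94, and 18 rose and none fell against CKO cells, with a median of 0.94; of all genes, 24.3% rose against WT and 26.4% against CKO cells. Of the 21 calls 12 held under every setting tried and with any 1 animal left out, and of the 18 calls 13 did. Leading were Ccnd2 (cyclin D2), Cad (pyrimidine synthesis) and Odc1 (polyamine synthesis), which rose by 2.26 (SE 0.497, adjusted p = 2.84e-04), 2.17 (SE 0.331, adjusted p = 1.28e-06) and 2.12 (SE 0.494, adjusted p = 5.69e-04) on the log2 scale against WT in edgeR. Against CKO cells the same 3 genes led, at 2.20, 1.79 and 2.29. Odc1 averaged 373 ± 619 CPM (SD, n = 7) in tumours and 83.9 ± 36.5 CPM (SD, n = 6) in WT cells. With an SD above the mean, Odc1 was very unequal over the tumours, and its log2 difference does not describe each of them.

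Among factors that turn over the MYC proteins, Fbxw7 fell most. Fbxw7 is the ubiquitin ligase subunit that marks MYC for destruction; it had 66.5 ± 15.5 CPM (SD, n = 7) in tumours, 260 ± 40.2 (SD, n = 6) in WT cells at 150 dpi and 287 ± 67.8 CPM (SD, n = 7) in CKO cells at 90 dpi. The edgeR log2 difference was −1.96 (SE 0.157, adjusted p = 8.54e-13) and −2.12 (SE 0.154, adjusted p = 6.02e-14). Of the 7 genes of that list 2 rose in both comparisons: Aurka, a mitotic kinase that also stabilises N-MYC, at 3.85 and 3.80, and Skp2, another ligase subunit, at 0.91 and 0.87. Of all genes, 24.3% rose against WT and 26.4% against CKO cells. Against WT 3 fell, Usp28 (−0.48) and Gsk3b (−0.42) with Fbxw7, and against CKO cells 4 fell, among them Usp28 (−0.66) and Gsk3b (−0.49), where 21.9% and 22.6% of all genes fell; these act on both making and removing the marks for destruction. Over the settings tried, the adjusted p against WT reached 0.147 for Usp28 and 0.186 for Gsk3b, and leaving out 1 animal brought it to 0.12 at most for Usp28.

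Of 8 coactivators 4 rose against WT, among them Ruvbl2 (1.43), Wdr5 (0.71) and Kat2a (0.57), and Kat5, an acetyltransferase, fell (−0.66), beside 24.3% of all genes higher and 21.9% lower; against CKO cells Ruvbl2 (1.27) rose and Kat5 (−1.03) fell, beside 26.4% and 22.6% of all genes. Over the settings tried, the adjusted p against WT reached 0.0634 for Wdr5, 0.062 for Kat2a and 0.0556 for Kat5. Of 6 corepressors and Miz1, Hdac1 rose in both comparisons (1.05 and 0.87) and Ncor1 fell against WT (−0.38, adjusted p = 0.0152, at most 0.0649 when 1 animal was left out and 0.266 over the settings tried), counts no higher than the shares over all genes just given. Of 4 genes of the extended network, the glucose-sensing partners of MLX, Mlxip (0.60, adjusted p = 0.00226) and Mlxipl (2.13, adjusted p = 0.0102), rose against WT and none was called against CKO cells. The share of all genes that rose against WT was 24.3%.

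Markers of division rose in tumours, and those of other cell types moved in both directions. All 20 proliferation genes rose in both comparisons, and their summed level was 740 to 3945 CPM in tumours against 69.7 to 260 CPM elsewhere. In tumours the 7 microglia and macrophage markers summed to 170 to 579 CPM, against 68.4 to 147 CPM elsewhere, and 6 of 7 rose against WT; oligodendrocyte markers summed to 220.5 to 1423 against 1263 to 4381 CPM, astrocyte markers to 561 to 2897 against 1812 to 6158 CPM, and endothelial markers to 77.6 to 186 against 91.5 to 284 CPM. Gene by gene, of 5 astrocyte markers 2 were called higher and 2 lower in both comparisons. Of 6 endothelial markers 1 was lower and 0 higher against WT, and 1 higher and 0 lower against CKO cells. Of 6 oligodendrocyte markers 3 were lower against WT and 4 against CKO cells, with 0 higher. Of all genes, 24.3% were higher and 21.9% lower against WT, and 26.4% and 22.6% against CKO cells. No marker was at 0 in every animal of a group. The part of these markers, and of the neuron markers given above, in the differences of the members was not tested. Tumour by tumour, in the order Tumor_16713, Tumor_16839, Tumor_16840, Tumor_16844, Tumor_21256, Tumor_21349 and Tumor_21354, the proliferation sum was 2030, 3945, 1584, 948, 740, 3566 and 1506 CPM. The highest sum was in the tumour with the highest Mycn, the next in that with the highest Myc, and the lowest in that with the highest Mycl. The other tumours were not ordered by Myc: Tumor_16844, at 129 CPM of Myc, had a sum of 948 CPM, and Tumor_21354, at 68.1 CPM, one of 1506 CPM. Whether the sum goes with any paralogue was not tested.

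Before tumours, no member was called. For CKO against WT cells at 12 dpi 0 of 9 members passed, where 0.0183% of genes did, and at 90 dpi 0 of 9, where 0.0489% did. At an unadjusted p under 0.05 Mnt alone passed at 12 dpi (log2 difference −0.36, SE 0.174, p = 0.0487 in edgeR's model across all genes) and none at 90 dpi. Mycn had log2 differences of −0.67 (SE 0.703) at 12 dpi and 0.75 (SE 0.766) at 90 dpi, with fold intervals of 0.242 to 1.63 and 0.595 to 4.77. Myc had 0.08 (SE 0.298) and −0.18 (SE 0.293), with fold intervals of 0.705 to 1.59 and 0.592 to 1.31. The intervals leave room for a change of Mycn of several fold, and for Myc they stay far from the rise seen in tumours.

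Over time, 0 of 9 members passed in CKO cells from 12 to 90 dpi (0.0% of genes), in WT cells from 12 to 90 dpi (0.00612%) and in WT cells from 90 to 150 dpi (0.0183%), and none at an unadjusted p under 0.05. DESeq2 called 2, 9 and 20 genes in the same comparisons. With only the compared groups in the fit, 1 member, Mycn, was lower in WT cells at 90 than at 12 dpi (−1.12, adjusted p = 0.0191). The shift of the CKO-WT difference between 12 and 90 dpi was called for 0 members (0.0% of genes) and largest for Mycn at 1.42 (SE 1.04, adjusted p = 1.0).

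The shift of the CKO-WT difference between 90 and 150 dpi, with tumours as the CKO side, in which 30.0% of genes were called, was called for 5 members. Myc (5.04, SE 0.408, adjusted p = 3.7e-12), Mycl (1.62, SE 0.522, adjusted p = 0.0163) and Mxd3 (2.50, SE 0.884, adjusted p = 0.0291) went up in edgeR, and Mxi1 (−0.69, SE 0.21, adjusted p = 0.0105) and Mxd1 (−1.30, SE 0.288, adjusted p = 6.12e-04) went down. For Mxd3 the call was lost without WT_22254 (adjusted p = 0.0659) or WT_22255 (0.0942), without the filter on low counts (0.0544) and with only the groups concerned in the fit (0.0513), from 0.00808 to 0.0544 over all settings tried. For Mycn it was 0.05 (SE 1.01, adjusted p = 0.981), and −2.01 (adjusted p = 0.0207) without Tumor_16839.

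The genes whose log2 CPM ran most like a member's over the 37 animals, among genes above the median level, are given as a description, since group, depth and composition are shared by the points. For Myc these included Sh3d19 (r = 0.951) and Vim (r = 0.935), and over the 30 animals without tumour their r was 0.412 and 0.571. For Mycn they were Arxes2 (r = 0.913), Tox3 (r = 0.891) and Top1 (r = 0.886), with 0.915, 0.851 and 0.869 without tumours, where the 30 animals are among those the genes were chosen on. Mxd1 ran with Mark2 (r = 0.919, 0.876 without tumours), Klf16 (r = 0.916, 0.912) and Mgst3 (r = 0.915, 0.895). The 30 animals include the shallow WT_21167, with 1 count of Mxd1 (9.479 CPM) and 7 counts of Mycn. No r without WT_21167 is given here, and its part in these values was not tested. For Mxd3, Cers2 (r = 0.829, 0.655 without tumours), Man2b1 (r = 0.803, 0.546) and Pmp22 (r = 0.801, 0.537) led. For Mxi1 these were Mtmr4, Vdac2 and Ahcyl1 (r = 0.841 to 0.852), for Max Snrpd1, Ndufa5 and Usmg5 (r = 0.693 to 0.753), for Mycl Ctnnbip1, Ccdc115 and Plekhf2 (r = 0.734 to 0.735), for Mxd4 Clip2, Prrc2a and Nucb1 (r = 0.723 to 0.767) and for Mnt Ddx5, Pcf11 and Zfp180 (r = 0.695 to 0.729).

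In the small libraries of CKO cells, Mxd4 was read most often and Myc least. Myc had counts in 4 of 56 10-cell libraries at 12 dpi (7.14%, exact Clopper-Pearson interval 1.98% to 17.3%) and in 2 of 56 at 90 dpi (3.57%). It had counts in 0 of 40 pool-and-split libraries at each time. This allows a share of up to 7.5% if 3 of 40 libraries are taken as the limit when 0 have a count. By the exact interval the share is up to 8.81%. Mycn had counts in 18 (32.1%) and 13 (23.2%) 10-cell libraries, and in 9 (22.5%) and 8 (20.0%) pool-and-split libraries. Mycl had counts in 4 and 9 10-cell and in 1 and 6 pool-and-split libraries. Mxd4 had counts in 48 (85.7%) and 54 (96.4%) 10-cell and in 37 (92.5%) and 40 (100%) pool-and-split libraries, at a mean of 217, 141, 163 and 240 CPM. Intervals and the limit at 0 cover counting error only.

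**Figure D4:**
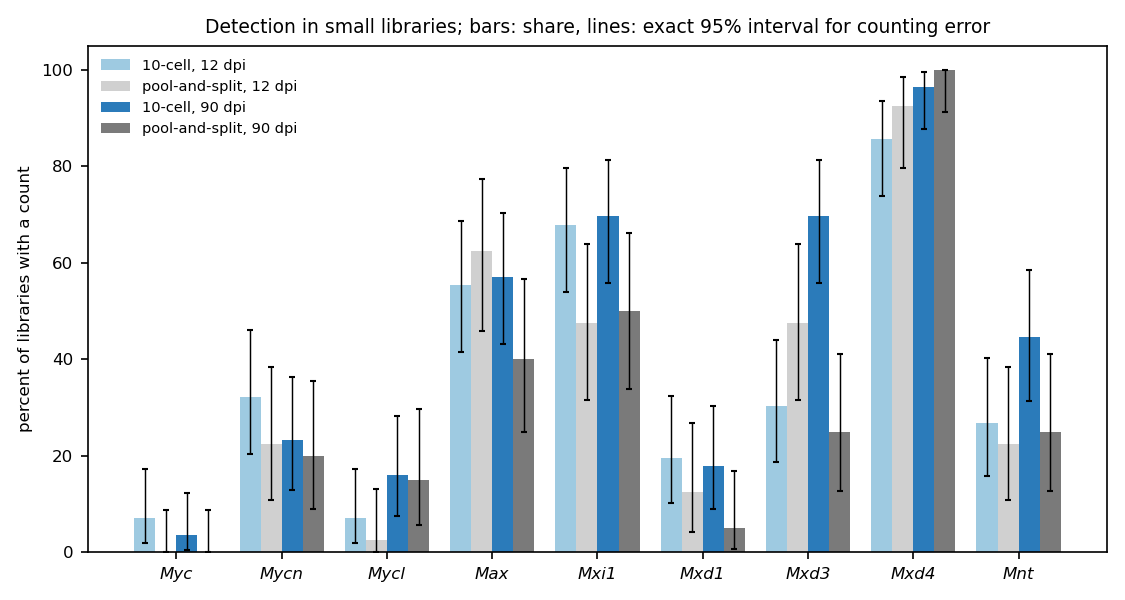
Percent of small libraries with a count above 0 for each gene, by kind of library and time; bars are shares of 56 10-cell or 40 pool-and-split libraries and lines are exact 95% intervals. Mxd4 stands at 85.7% to 100% and Myc at 0% to 7.14%.

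Between these lay Mxi1, with counts in 38 (67.9%) and 39 (69.6%) 10-cell and in 19 (47.5%) and 20 (50.0%) pool-and-split libraries, and Max, in 31 (55.4%) and 32 (57.1%), and in 25 (62.5%) and 16 (40.0%). Mnt had counts in 15 (26.8%) and 25 (44.6%) 10-cell and in 9 (22.5%) and 10 (25.0%) pool-and-split libraries, and Mxd1 in 11 (19.6%) and 10 (17.9%), and in 5 (12.5%) and 2 (5.0%). Any of the 3 MYC paralogues was read in 42 of 112 10-cell libraries and more than 1 of them in 8, while any of the 5 antagonists was read in 110 and more than 1 in 90. In pool-and-split libraries the numbers were 23 and 1, and 77 and 60, of 80. A 10-cell library without a count of a gene does not show that the cells lacked it at this depth.

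Mxd3 was the member whose detection differed most between times, as found after its values were seen. In 10-cell libraries it had counts in 17 of 56 (30.4%, 18.8% to 44.1%) at 12 dpi and in 39 of 56 (69.6%, 55.9% to 81.2%) at 90 dpi. By set of 14 libraries (same sex and label number) this was 5, 5, 2 and 5 at 12 dpi, and 10, 11, 9 and 9 at 90 dpi. The share of all genes whose sets separate between the times was not counted, so this is not read as particular to Mxd3. In pool-and-split libraries it went the other way, from 19 of 40 (47.5%) to 10 of 40 (25.0%). In 25 of the 39 libraries the count was 1 to 3, and the mean CPM of the 10-cell libraries went against the share, at 7.23 at 12 dpi and 1.67 at 90 dpi. A single library with 1770 counts made up 96.2% of the summed CPM at 12 dpi, so no order between the times is read from either value. Summed by set, the log2 difference of 90 against 12 dpi was −0.89 in 10-cell (SE 3.78, adjusted p = 0.969, edgeR) and −2.05 in pool-and-split libraries (SE 0.91, adjusted p = 0.635, edgeR).

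No member was called over time in either kind of small library. Of 8 members tested in 10-cell libraries 0 passed, where 0.0% of 14500 genes did (1034 at an unadjusted p under 0.05, and 274 by DESeq2). Of 6 tested in pool-and-split libraries 0 passed, where 0.0% of 13408 genes did (1050 unadjusted, 523 by DESeq2), and 1 member, Mxd3, had an unadjusted p under 0.05. The log2 difference of Mxd4 was −0.88 (SE 0.454, adjusted p = 0.722) in 10-cell and 0.38 (SE 0.48, adjusted p = 0.897) in pool-and-split libraries, and that of Mxi1 −1.02 (SE 0.615, adjusted p = 0.75) and −1.39 (SE 1.04, adjusted p = 0.773). Single libraries also held most of the signal of Mycl in 10-cell libraries at 12 dpi (3510 counts, 99.5% of the summed CPM) and of Mycn in pool-and-split libraries at 12 dpi (1935 counts, 94.3%).

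The spread between 10-cell libraries was compared with that between pool-and-split libraries in the members detected in at least 50% of the libraries of a time. At 12 dpi 0 of 3 members differed, where 0.0254% of genes did in limma, and at 90 dpi 0 of 4, where 0.621% did. This test took single libraries and not sets as observations, so its p-values do not measure the spread between sets or animals. At 12 dpi the difference in mean absolute deviation (log2 scale, 10-cell minus pool-and-split) was 0.68 for Mxd4 (adjusted p = 0.622), 0.46 for Mxi1 and −0.27 for Max. At 90 dpi it was 0.36 for Mxd3 (SE 0.147, adjusted p = 0.231, the only one with an unadjusted p under 0.05), 0.44 for Mxi1, 0.26 for Max and −0.13 for Mxd4. The detection limit was set over both kinds of library together. At 90 dpi Mxd3 had counts in 39 of 56 10-cell but 10 of 40 pool-and-split libraries, and Max in 32 and 16. Mxi1 at 12 dpi had counts in 38 and 19. These passed the limit only through the 10-cell libraries. Libraries at 0 do not deviate from a median of 0, so these 3 values are not read as a difference in spread between cells.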

How the data were processed

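The deposited values were RSEM expected counts per gene, per the labels' and the submitters' processing notes, which also name Bowtie2 and the GRCm38 build without versions; 13.6% of values were not whole, and they were rounded. The 2 libraries of each of 11 bulk animals were summed, giving 37 animals from 48 libraries. These 11 were the 7 tumours and the animals CKO_20642, CKO_20647, CKO_22208 and CKO_22212, with no WT animal among them. Genes passing filterByExpr (minimum count 10, minimum total 15; 16349 genes, all 9 members) were scaled by TMM and tested with edgeR 4.0.16 (R 4.3.3) by quasi-likelihood F test in 1 fit of all 6 groups with sex as covariate, with calls at an adjusted p under 0.05 (Benjamini-Hochberg, all genes tested). The common coefficient of biological variation came to 0.418 in bulk, 0.955 in 10-cell and 1.08 in pool-and-split libraries. In edgeR the SE was derived as the absolute log2 difference over the square root of the F value, an approximation. Fold intervals use 1.96 SE. CPM come from the scaled totals, and r uses log2 CPM with a prior count of 2. Exon lengths came from GENCODE M21.

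Small libraries were summed by set (libraries of 1 time, 1 sex and 1 final number in the label, 4 sets per time and kind, with 14 10-cell or 10 pool-and-split libraries). What that number marks is not stated, so p-values over sets may measure technical spread. Same-numbered sets at 12 and 90 dpi did not deviate together (correlations of −0.0393 to 0.0184) and were not paired. Spread was tested with limma 3.58.1 on absolute deviations of log2(CPM + 1) from the median of a set, with single libraries as observations and sex as covariate. Alternatives were size factors of DESeq2 1.42.0 (RLE) and its own test, no filter on low counts, genes averaging 10 CPM or more, a fit without sex, only the deeper library of an animal, only the compared groups in the fit, and leaving out each animal or set. Scripts were tested on simulated data. The 9 members and the gene lists were chosen with earlier results of these data known. The 9 members were all named; of a list, up to 3 called rises and 3 called falls per comparison; and the 3 genes most alike, except that some genes these rules would name are not reported here. Python 3.11.15, pandas 2.3.3 and scipy 1.17.1 were used.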

Additional observations from a re-analysis of the deposited data

Results flagged for a closer look

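Within groups of 4 to 10 animals, the highest or lowest animal was compared with the gap expected by Dixon's 95% limit, on log2 values, for 54 groups of 1 member each; chance marks about 1 in 20 groups. The shallow WT animal WT_21167 at 90 dpi was the highest of its group in Mycl at 66.35 CPM (7 counts, the others 25.4 to 27.4 CPM), the lowest in Mxi1 at 37.92 CPM (4 counts, the others 89.06 to 112.6 CPM) and the lowest in Mxd1 at 9.479 CPM (1 count, the others 52.39 to 65.73 CPM). The animal labelled CKO_20647 at 90 dpi was the lowest in Mycl at 6.971 CPM (the others 17.31 to 25.25 CPM), and its 2 libraries had 114 and 0 counts. In Max, WT_22254 at 90 dpi was the highest at 135.6 CPM (the others 104.3 to 112.0 CPM) and WT_21593 at 150 dpi the lowest at 86.67 CPM (the others 129.4 to 161.3 CPM). Tumor_16713 was the lowest tumour in Mxi1 at 37.45 CPM (the others 58.58 to 75.63 CPM).

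The genotype effect differed between 90 and 150 dpi by the interaction term of the edgeR fit for Myc (5.036 on the log2 scale), Mycl (1.624), Mxd3 (2.504), Mxi1 (−0.694) and Mxd1 (−1.300), with adjusted p of 3.7e-12, 0.0163, 0.0291, 0.0105 and 6.12e-04. The cells with Trp53 and Nf1 deleted at 150 dpi are tumour cells, so time and tumour cannot be told apart in these values.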

How the results depend on the processing

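Under RLE size factors the median log2 difference of all genes moved from 0.063 to 0.217 against WT and from 0.121 to 0.289 against CKO cells, and the share of calls that were higher from 52.6% to 62.1% and from 53.8% to 63.5%; every member called in the tumour comparisons kept its direction there. Called genes numbered 13 with DESeq2, 1 at a mean of at least 10 CPM and 92 with the compared groups alone for CKO against WT at 12 dpi (2 to 6 on leaving out an animal), and 14 with DESeq2 and 4 at 10 CPM at 90 dpi (4 to 8). They numbered 2 with DESeq2 and 1 with the compared groups alone for CKO cells over time; 9 with DESeq2 and 295 alone for WT at 90 against 12 dpi (0 to 1); 20 with DESeq2 and 5 without sex for WT at 150 against 90 dpi (1 to 4); and 6 with DESeq2 and 1 without filter for the change of the genotype effect to 90 dpi (0 to 1). Called members numbered 3 with the groups alone for tumour against WT (5 to 8 on leaving out an animal) and 1 for WT at 90 against 12 dpi. Leaving out an animal gave 5 to 7 called members against CKO cells and 4 to 6 for the change to 150 dpi. In small libraries, treating each library as a replicate called 251 (10-cell) and 239 (pool-and-split) genes, DESeq2 274 and 523, and no filter 1 (pool-and-split). The spread test at 12 dpi called 11 genes with a pseudocount of 0.1, 0 with 5 and 6 at detection in 90% of libraries (0 to 4 on leaving out a set), and at 90 dpi 19 to 38 on leaving out a set.

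With a replicate block of sex and number, no gene was called over time in either kind of small library; Mycl in 10-cell libraries turned to 0.79 and Mycn in pool-and-split libraries to 0.80, and no set correlated best with its own number at the other time. Other uncalled differences that turned sign were Myc, CKO against WT at 90 dpi (0.047, deepest library), Mxd1 in CKO cells over time (−0.001 at 10 CPM, −0.14 deepest) and in WT cells (0.028, groups alone), and for the change to 90 dpi Myc (0.011 deepest), Mxi1 (−0.014 with DESeq2, −0.003 alone) and Mxd1 (−0.12 deepest, −0.009 alone). For the change to 150 dpi Mycn turned to −0.024 (deepest) and −0.029 (alone), and Mxd4 in the spread at 90 dpi to 0.004 at a pseudocount of 0.1.

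Where leaving out an animal or set turned a sign, the ranges were, for CKO against WT, Myc −0.076 to 0.19 and Mxd3 −0.085 to 0.588 at 12 dpi and Mxd4 −0.107 to 0.004 at 90 dpi; for tumours, Mycn −1.269 to 1.149 against WT and −0.636 to 1.652 against CKO cells; for CKO cells over time, Max −0.012 to 0.162, Mxd1 −0.132 to 0.094 and Mxd3 −0.492 to 0.007; for WT from 12 to 90 dpi, Mycl −0.209 to 0.099, Mxi1 −0.002 to 0.178 and Mxd1 −0.101 to 0.078; and for WT from 90 to 150 dpi, Mxi1 −0.159 to 0.001, Mxd3 −0.333 to 0.493, Mxd4 −0.254 to 0.035 and Mnt −0.02 to 0.127. For the change to 90 dpi they were Mxi1 −0.055 to 0.113, Mxd1 −0.103 to 0.12 and Mxd3 −0.003 to 0.735, and to 150 dpi Mycn −2.006 to 0.401. In 10-cell libraries they were Mycn −2.421 to 0.612, Mycl −5.743 to 2.029, Max −1.649 to 0.01, Mxd1 −1.603 to 0.491 and Mxd3 −3.505 to 1.723, in pool-and-split libraries Mycn −3.27 to 1.474, Mxd4 −0.057 to 0.685 and Mnt −1.926 to 0.802, and in the spread Max −0.783 to 0.249 at 12 dpi and Mxd4 −0.278 to 0.034 at 90 dpi. None of these was called with all animals or sets, and the cause was not tested. Mxd3 outside tumours, every member in WT_21167 and Myc in small libraries rest on few or no counts.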

Other observations

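The genes on either side of Mycn were read in Tumor_16839, chosen after its Mycn level was seen. Of the 12 nearest tested genes, 6 on each side within 1.85 Mb before and 1.55 Mb after it, 6 were above all other tumours and at least 2-fold above their median. Gen1 had 111.9 CPM (the other tumours 6.89 to 40.9), Smc6 980.3 (69.5 to 230), Fam49a 580.4 (36.7 to 201), Ddx1 751.0 (49.3 to 213), Nbas 131.3 (25.2 to 75.95) and Gm6736 3.636 CPM (0 to 2.366). Gm6736, at few CPM, lies within the span of Nbas, so the 6 are not all separate places. The part of Nbas in the counts of Gm6736 was not tested. Relative to the median of the other tumours Mycn stood at 41.8-fold, Gen1 at 8.91, Ddx1 at 8.45, Smc6 at 8.34, Fam49a at 4.93 and Nbas at 2.23. Over all 16349 genes tested, this tumour was the highest of the 7 and at least 2-fold above the median of the others in 9.73%. Around Mycl in Tumor_21256, 0 of 12 neighbours met the same limits (9.82% of all genes did in that tumour), and around Myc in Tumor_21349 0 of 12 (5.6% of all genes). Genome copy number was not measured in these files.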
